A study of Mus musculus with 10 samples.

Results

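PVT3 neurons are one of the 5 neuronal subtypes that the study describes in the PVT (paraventricular thalamus), a midline nucleus that carries signals on arousal, hunger and threat from hypothalamus and brainstem to cortex, amygdala and ventral striatum. Its projection neurons are glutamatergic and are marked by *C1ql3*, a secreted synaptic organizer of the C1q family. The marker genes used here to choose PVT3 are *Cadps2*, *Glis3*, *Gypc* and *Col6a1*. *Cadps2* encodes a priming factor of dense-core vesicles and *Glis3* a Krüppel-like zinc finger transcription factor. *Gypc* encodes a glycophorin that links the membrane to its skeleton, and *Col6a1* a chain of collagen VI. In tissue sections the study labelled PVT3 with *Npffr1*, and with *Insrr* as a second marker, and found its cells more antero-laterally.

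Tissue was punched from the PVT and its surroundings, and nuclei were sequenced with the droplet method of 10x Genomics, in which each captured RNA molecule carries a unique molecular identifier (UMI). The mice were of the C57BL/6J strain and 12 weeks old, no treatment or transgene is named in the labels, and the methods describe 4 animals pooled for each sample. There were 10 libraries, which are the replicates here: 6 are labelled female, and 4 carry no sex in their labels but are marked male in the deposited table of nuclei and are called male below. *Xist*, the transcript of the inactive X chromosome, lay between 712 and 1515 CPM (UMIs of a gene per 1e6 UMIs of the sum) in PVT3 of the female libraries and between 0 and 0.371 CPM in the male ones. In the deposited counts the 13 mitochondrial genes had UMIs in female nuclei and none in male nuclei. The deposited annotation still gives male nuclei a mitochondrial percent, with medians from 0.0434% to 0.421% in PVT3 of the male libraries. Sex and the way of counting therefore cannot be told apart in direct comparisons of levels.

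The deposited cluster names separate cell types but not PVT subtypes, so PVT3 was selected on measured values. Of 20503 nuclei, 10410 carry a neuronal cluster name. Of these, 3684 passed a gate of more than 1000 genes, at least 2 UMIs of *C1ql3* and none of *Gad2* or *Nwd2*, which mark neurons of neighbouring regions. Each gated nucleus was scored by the mean log level of 5 sets of marker genes, each score was scaled over the gated nuclei to a z-score, and a nucleus was put in the subtype of its highest z-score. This gave 667 PVT3 nuclei, 18.1% of the gated neurons, beside 905 PVT1, 714 PVT2, 715 PVT4 and 683 PVT5 nuclei. The marker sets were picked by the study from clusters of these same nuclei, so the tests below describe how nuclei split in this way differ and give no independent evidence for a subtype.

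The 4 markers that chose the nuclei were uneven in level. *Cadps2* had at least 1 UMI in 86.5% of PVT3 nuclei and in 20.2% of the other gated nuclei, and *Glis3* in 90.9% and 22.8%. *Gypc* had a UMI in only 19.8% of PVT3 nuclei and *Col6a1* in 16.04%, against 1.56% and 0.663% elsewhere. UMIs of a single one of the 4 markers were found in 132 members. In sums per library the level of *Cadps2* in PVT3 ran from 769 to 1186 CPM with a median of 1026 CPM, and that of *Glis3* from 735 to 1133 CPM with a median of 968 CPM. The average over the other 4 subtypes within a library, called the others in the ranges below, stayed at or below 108 CPM for *Cadps2* and 132 CPM for *Glis3*. Among single subtypes PVT4 carried the next highest mean levels, 178 CPM for *Cadps2* and 186 CPM for *Glis3*, and PVT2 the lowest. Neurons outside the gate held 299 ± 119 CPM of *Cadps2*, more than PVT4, and 124 ± 39.0 CPM of *Glis3*.

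PVT3 was not sharply set off by this score. The median PVT3 z-score was 1.79 in members and -0.613 in the other gated nuclei, and the median lead of a member over its next highest score was 1.18. In 166 members (24.9%) the lead was under 0.5, and in 457 other nuclei the PVT3 score came within 0.5 of their own highest. Just inside the boundary, the closest member had a PVT3 z-score of 1.258 against 1.255 for the next, and just outside, the closest other nucleus had 0.309 against a highest score of 0.318. The next highest score was that of PVT4 in 441 members, of PVT5 in 166, of PVT2 in 31 and of PVT1 in 29. When every nucleus was thinned to 2000 UMIs before scoring, 486 of the 666 members that could be thinned (73.0%) stayed in PVT3. Over all 3681 gated nuclei that could be thinned, 53.3% kept their subtype.

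PVT3 fell in large part into a single cluster of the deposited annotation. Of the 667 members, 435 (65.2%) carry the name Neurons (4), 150 (22.5%) Neurons (2) and 37 (5.55%) Neurons (1). Conversely, 78.1% of the gated nuclei of Neurons (4) were PVT3. The share of PVT3 nuclei in Neurons (4) was 68.7 ± 8.17% (SD, n = 10 libraries) and ran from 58.1% to 82.1%, so the tie was present in each library. PVT4 had 12.8 ± 5.63% of its nuclei in Neurons (4) and 43.9 ± 13.3% in Neurons (2). The authors made these names from the genes of the same nuclei, so the overlap is given without a test.

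Levels in the members of these 2 clusters are given as a description, without a test. *Cadps2*, one of the markers that chose the nuclei, stood in the members of Neurons (4) at 1353 ± 242 CPM (SD, n = 10 libraries) and in the members of Neurons (2) at 357 ± 155 CPM (n = 8, the libraries with at least 5 such nuclei). *Gypc*, another, stood at 29.8 ± 12.0 CPM and 3.51 ± 5.50 CPM. Of 36 named genes called higher in PVT3 below, 32 had the same order, which the choice of genes high in PVT3 favours, since most members are in Neurons (4). Among them were *Pbx3* (670 ± 56.9 against 292 ± 66.5 CPM) and *Lrp4* (49.3 ± 15.9 against 6.19 ± 9.31 CPM). *Npffr1*, which is not one of the 36, stood at 23.2 ± 11.2 CPM and 2.94 ± 5.13 CPM. The other 4 stood higher in the members of Neurons (2). These were *Hcrtr2* (45.0 ± 16.8 against 88.6 ± 26.7 CPM), *Glra3* (38.7 ± 20.3 against 57.4 ± 50.1 CPM), *Hpcal1* (21.3 ± 7.92 against 34.4 ± 28.5 CPM) and *Erbb4* (207 ± 84.3 against 230 ± 157 CPM). Of 64 named genes called lower in PVT3, 62 stood higher in the members of Neurons (2) than in those of Neurons (4), with *Onecut2* and *Thrb* the exceptions. The choice of genes low in PVT3 favours this order in the same way, and the share over all genes was not counted.

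Markers of other cell types were summed in PVT3 and in the other subtypes. The neuronal markers *Rbfox3*, *Snap25* and *Slc17a6* summed to 1573 ± 134 CPM in PVT3 and 1627 ± 167 CPM in the other subtypes. The 5 oligodendrocyte markers summed to 92.3 ± 24.7 CPM against 98.9 ± 22.7 CPM, with *Mbp* the most abundant at 57.5 CPM, and the 5 astrocyte markers to 65.8 ± 43.4 CPM against 42.9 ± 20.3 CPM, with *Slc1a3* at 27.1 CPM. The 4 microglial markers were at 94.4 ± 32.9 CPM against 75.8 ± 23.0 CPM and exceeded the other subtypes in 9 of 10 libraries, most of it *P2ry12* at 73.3 CPM, whose log2 fold change was 0.37 (adjusted p = 5.2e-05 from edgeR). Ependymal markers summed to 17.3 ± 12.2 CPM against 14.01 ± 13.0 CPM and also exceeded the others in 9 of 10 libraries, and those of oligodendrocyte precursors, endothelial cells, fibroblasts and habenular neurons to between 4.42 and 5.66 CPM. *Gad1*, which defines inhibitory neurons, had no UMI in PVT3, where the gate had already required none of *Gad2*. *Gpr101* and *Slc32a1*, listed with *Gad1* as markers of the bed nucleus of the stria terminalis, had 7 and 4 UMIs in PVT3. *Gpr101* stood at 1.67 ± 2.55 CPM against 0.213 ± 0.472 CPM in the other subtypes, and *Slc32a1* at 0.149 against 0.191 CPM. *Adarb2*, the marker of mediodorsal neurons, stood at 52.4 ± 34.4 CPM against 85.4 ± 46.3 CPM. The part of these levels in the differences below was not tested. Doublet calling by Scrublet marked 186 nuclei (0.907%), of which 6 were PVT3, and they were kept. The deposited table holds the authors' own doublet call, which is singlet for all 13002 male nuclei, 402 of them PVT3, and empty for all 7501 female nuclei, 265 of them PVT3. In all, 46 barcodes occurred in more than 1 library, at most 8 in any pair.

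The share of PVT3 nuclei was compared between the sexes over libraries. The number of PVT3 nuclei per library ran from 20 to 186, and 2 male libraries held 156 and 186 of the 667. The median PVT3 nucleus had between 4350 and 8412 UMIs in the 6 female libraries and between 12852 and 26057 UMIs in the 4 male ones, without overlap. PVT3 made up 21.2%, 28.2%, 20.8%, 17.1%, 14.2% and 23.3% of the gated neurons in female replicates 1 to 6, and 15.7%, 22.6%, 17.5% and 15.9% in male replicates 1 to 4. The sexes overlapped. The mean share was 20.8 ± 4.87% (SD, n = 6) in female and 17.9 ± 3.21% (n = 4) in male libraries, a difference of 2.84 percentage points that was not larger than the spread between libraries (exact two-sided permutation test over 210 splits, p = 0.352). These are shares of recovered nuclei, and the 95% Clopper-Pearson intervals of the plot cover counting error only.

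**Figure D1:**
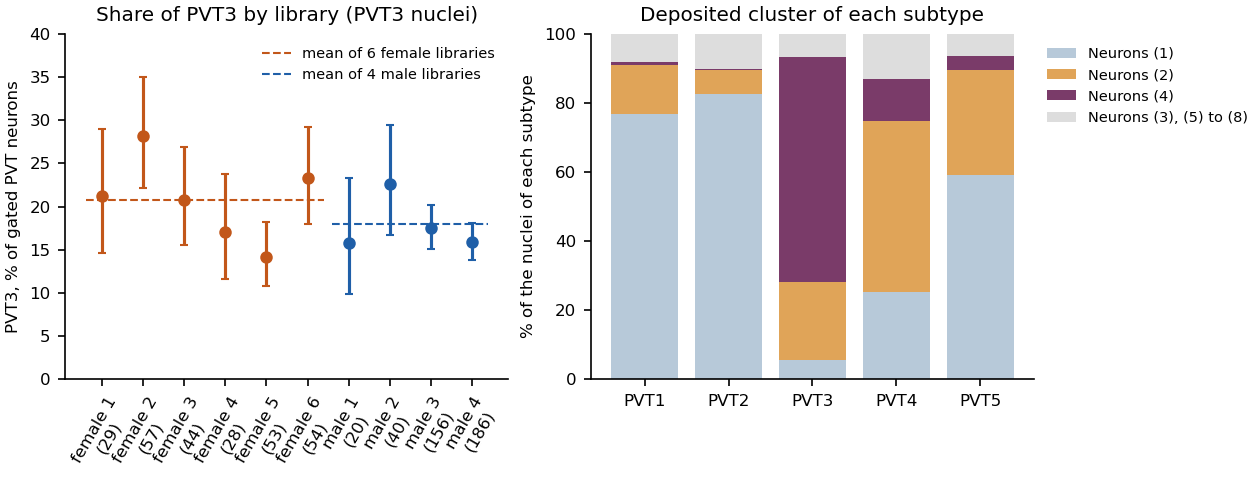
The left panel plots the percent of gated PVT neurons that were PVT3 in each library (6 female, 4 male) with exact 95% binomial intervals, the number of PVT3 nuclei and the mean of each sex as a dashed line, and the intervals of both sexes overlap. The right panel stacks the deposited cluster names of the nuclei of each subtype in percent, and PVT3 is the only column in which Neurons (4) is the largest part, at 65.2%.

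Set against the other 4 subtypes, PVT3 nuclei carried more *Pbx3*, *Maf*, *Lrp4* and *Insrr* and less *Igf1*, *Chrm2*, *Mkx* and *Gpc6*. UMIs were summed per library and subtype, and PVT3 was compared with the mean of PVT1, PVT2, PVT4 and PVT5 in an edgeR quasi-likelihood fit with library as a term. The 22 genes of the rule were left out. A gene was called at a Benjamini-Hochberg adjusted p under 0.05 and an absolute log2 fold change over 0.5. Of 8392 genes tested, 430 (5.12%) were higher in PVT3 and 529 (6.3%) were lower. Without the filter on low counts, 1247 were higher and 920 lower. Against PVT4 alone, 283 (3.37%) were higher and 416 (4.96%) lower, and against PVT1 alone 530 (6.32%) were higher and 632 (7.53%) lower. These 3 comparisons use the same PVT3 sums.

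Some of the genes highest in PVT3 encode transcription factors. *Pbx3*, a TALE homeodomain factor, ran from 438 to 656 CPM in PVT3 with a median of 516 CPM, while the mean of the other subtypes ran from 44.3 to 91.8 CPM. No PVT3 sum overlapped the others. The log2 fold change was 3.42 (SE 0.08, adjusted p = 1.23e-47 from edgeR), and PVT4 was next with 148 CPM. Neurons outside the gate had 150 ± 44.3 CPM. Among nuclei thinned to 2000 UMIs, *Pbx3* had a UMI in 53.5 ± 6.58% of PVT3 nuclei, 19.8 ± 4.93% of PVT4 nuclei and 13.3 ± 3.41% of oligodendrocytes, against 73.9%, 34.1% and 16.7% unthinned. The median depth before thinning was 11352 UMIs in PVT3, 11294 in PVT4 and 2321 in oligodendrocytes, of which 847 of 2462 were too shallow to be thinned.

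*Maf*, a basic leucine zipper factor, ran from 45.1 to 68.96 CPM in PVT3 and from 5.82 to 15.1 CPM in the others, a log2 fold change of 2.73 (SE 0.14). *Bcl11b* (178 ± 21.9 CPM, log2 fold change 2.31), known from cortical projection neurons, was higher in 10 of 10 libraries. Against PVT4 it was near the fold required, and its call was lost under 9 alternative settings. It was at 0.27 there in male libraries alone (adjusted p = 0.092 from edgeR). With only nuclei whose lead was at least 0.5, it was at 0.19 (adjusted p = 0.247 from edgeR). On the other side, *Mkx*, a homeobox gene, was at 7.27 ± 5.07 CPM in PVT3 and from 59.3 to 91.4 CPM in the others (log2 fold change -2.77, SE 0.18), with no UMI in 2 PVT3 sums. *Lef1*, a nuclear effector of Wnt signalling, was also lower (-1.85), as was *Onecut2* (-1.68). Of 35 genes tested from a list of thalamic and zinc finger transcription factors, 2 were higher and 9 lower, beside 5.12% and 6.3% of all genes tested, with a median log2 fold change of 0.06 beside 0.02 over all genes tested. *Pbx3* and *Maf* were not on that list.

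The 14 highest genes also hold secreted and matrix proteins. *Lrp4*, a receptor of agrin that also binds Wnt antagonists, ran from 25.6 to 60.3 CPM in PVT3 and from 1.88 to 8.55 CPM in the others (log2 fold change 3.50, SE 0.17). *Sulf2*, an extracellular heparan sulfatase, had 34.6 ± 11.3 CPM and a log2 fold change of 3.10, and *Rspo3*, a secreted enhancer of Wnt signalling, 29.6 ± 12.6 CPM and 2.45. These genes were also found outside the PVT subtypes. Neurons outside the gate carried 38.2 ± 25.3 CPM of *Rspo3*. In nuclei thinned to 2000 UMIs, *Lrp4* had a UMI in 6.36 ± 6.00% of PVT3 nuclei and in 8.58 ± 3.48% of oligodendrocytes (23.9% and 11.9% unthinned), and *Sulf2* in 6.53 ± 2.61% and 18.5 ± 3.80% (22.3% and 24.1% unthinned). *Lamb1*, a laminin chain, lay between 49.3 and 79.4 CPM in PVT3 and between 6.36 and 19.8 CPM in the others (2.65, SE 0.11), and *Lama3*, another, was higher by 1.68. *Col25a1*, a transmembrane collagen, went the other way, at 88.7 ± 55.7 CPM against 340 to 667 CPM (log2 fold change -2.57, SE 0.13). Among 12 collagen and matrix genes tested, 3 were higher and 2 lower, with a median of 0.13. Over all genes tested, 5.12% were called higher and 6.3% lower, with a median of 0.02.

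The remaining genes of the highest 14 were mixed. *Rerg*, a Ras-like GTPase, had 133 ± 21.6 CPM in PVT3 and a log2 fold change of 3.02. *Sv2c*, a glycoprotein of synaptic vesicles, had 67.8 ± 15.7 CPM and 2.52, and *Tspan9*, a tetraspanin, 95.9 ± 27.3 CPM and 2.80. *Pard3b*, a polarity protein, had 50.0 ± 22.8 CPM in PVT4 and 57.8 ± 19.5 CPM in PVT3, with a log2 fold change of 2.48 against all others and -0.15 against PVT4 (SE 0.13, adjusted p = 0.527 from edgeR), which runs against these unweighted means, and PVT3 was the higher in 6 of 10 libraries. *C79798*, *5530401A14Rik* and *Gm11418* had log2 fold changes of 3.60, 2.87 and 2.87.

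**Figure D2:**
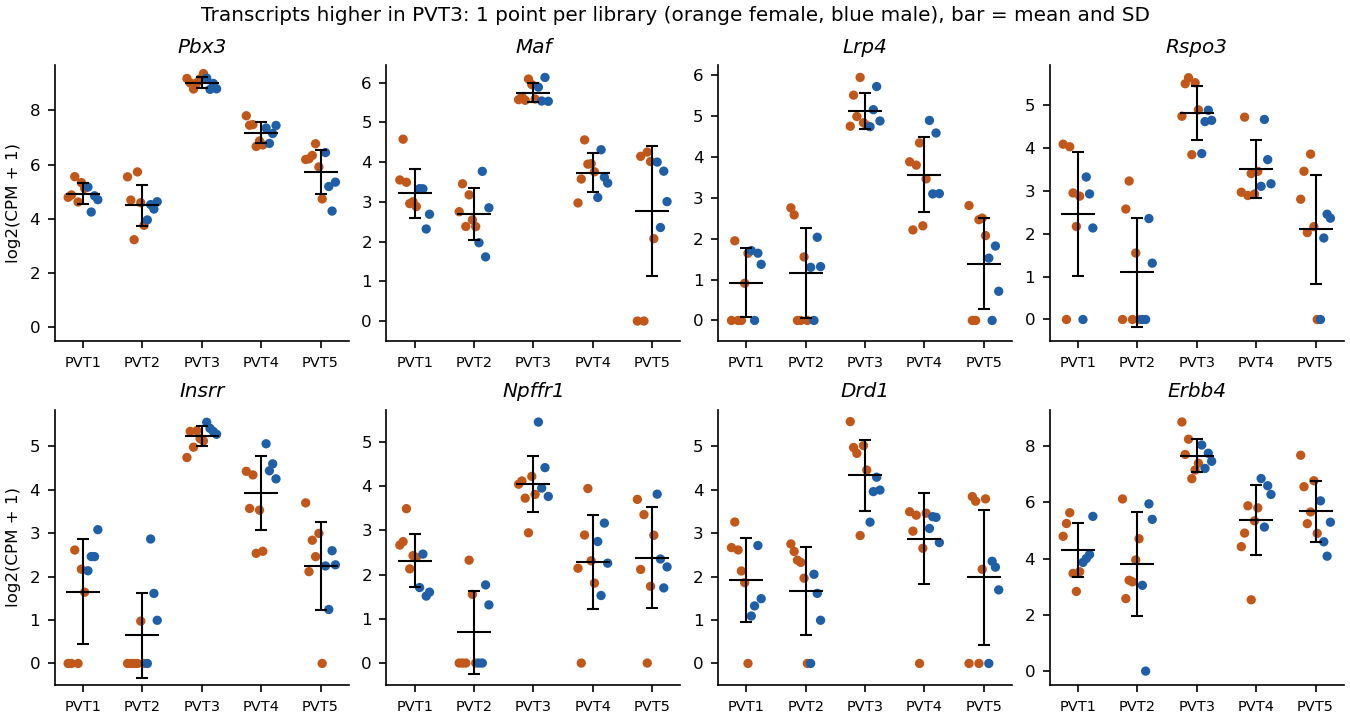
Levels of 8 transcripts that stood higher in PVT3, as log2(CPM + 1) on the vertical axis for each of the 5 subtypes, with 1 point per library (female and male in different colours) and the mean and SD as a bar. For *Pbx3* and *Maf* the 10 PVT3 points lie above all points of the other subtypes, and for *Npffr1* and *Drd1*, which did not pass the filter on low counts, single libraries of other subtypes reach the PVT3 range.

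Receptors were followed because the study describes PVT3 by them. *Insrr*, the insulin receptor-related receptor that senses alkaline pH, was found at 25.8, 39.7, 30.6, 40.2, 35.3 and 34.0 CPM in PVT3 of female replicates 1 to 6, and at 46.1, 41.8, 39.7 and 37.9 CPM in male replicates 1 to 4. The average over the other 4 subtypes within a library reached 9.89 CPM at most. The log2 fold change was 2.93 (SE 0.15, adjusted p = 5.97e-28 from edgeR) and 1.01 against PVT4 (SE 0.16, adjusted p = 6.73e-07), where the level was 16.6 CPM. In nuclei thinned to 2000 UMIs it had a UMI in 8.59 ± 3.30% of PVT3 and 2.01 ± 1.58% of PVT4 nuclei. Unthinned, the share was 29.7 ± 13.7% in PVT3 and 0.151 ± 0.326% in oligodendrocytes.

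*Npffr1*, a receptor of neuropeptide FF, was lower in level, with 150 UMIs in all PVT3 nuclei together, and did not pass the filter on low counts. Tested without the filter, it was higher in PVT3 by 2.38 on the log2 scale (SE 0.19, adjusted p = 7.90e-34 from edgeR). Its PVT3 level ran from 6.70 CPM in female replicate 4 to 42.7 CPM in male replicate 1 with a median of 15.0 CPM, and in each of the 10 libraries it exceeded the others' mean. In female replicate 4 the PVT4 level, 14.4 CPM, was the higher one. Thinned, it had a UMI in 2.17 ± 2.51% of PVT3 nuclei and 0.188 ± 0.340% of oligodendrocytes. *Npffr1* and *Insrr* both had a UMI in 46 of the 667 PVT3 nuclei, *Npffr1* alone in 56, *Insrr* alone in 163 and neither in 402. *Insrr* was found in 45.1% of nuclei with *Npffr1* and in 28.9% of those without, a description in which both genes share the depth of the nucleus.

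*Drd1*, a dopamine receptor outside the rule, stood at 21.99 ± 12.1 CPM in PVT3 and 7.47 CPM in PVT4, and in each of the 10 libraries it exceeded the others' mean, but its lowest library, at 6.70 CPM, fell within the range of the others. It did not pass the filter on low counts, and without the filter the log2 fold change was 2.26 (SE 0.18, adjusted p = 5.26e-33 from edgeR). *Drd2* and *Drd3*, whose placement was fixed by the rule, stood at 2.32 ± 2.08 and 38.4 ± 12.4 CPM in PVT3, beside 48.8 CPM of *Drd2* in PVT1 and 122 CPM of *Drd3* in PVT5. *Hcrtr1*, an orexin receptor, was at 7.19 ± 4.67 CPM in PVT3 and 9.94 CPM in PVT4, with overlapping libraries. *Hcrtr2*, the second orexin receptor, was called 0.59 higher than the mean of the others and did not pass the test against PVT4 (-0.04, SE 0.15, adjusted p = 0.923 from edgeR). As given above, its level was higher in the members of Neurons (2) than in those of Neurons (4). Its call was lost in female libraries alone (0.28, adjusted p = 0.367 from edgeR), without male replicate 2 (0.48) and without male replicate 3 (0.48).

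Several other receptors were lower in PVT3. *Chrm2*, the muscarinic M2 receptor, had a median of 13.8 CPM in PVT3, from 0 CPM in female replicate 1 to 43.2 CPM in male replicate 4, against 63.3 to 179 CPM in the others (log2 fold change -2.48, SE 0.17, adjusted p = 6.14e-22 from edgeR). With *Chrna7* (-1.06) and *Chrm3* (-0.91), 3 of 4 acetylcholine receptors tested were lower, beside 6.3% of all genes, and the median was -0.99. *Oprm1*, the mu opioid receptor, ran from 91.6 to 183 CPM in PVT3 and from 253 to 336 CPM in the others (log2 fold change -1.18, SE 0.06). Within PVT3 it stood at 90.3 ± 31.0 CPM in the members of Neurons (4) and 245 ± 66.4 CPM in those of Neurons (2). *Galr1*, a galanin receptor (-1.52), and *Tacr3*, the neurokinin 3 receptor (-2.02), were lower too. *Glp2r* (0.87) and the serotonin receptor *Htr1d* (1.76, from 26.8 to 60.7 CPM in PVT3) were higher. Against PVT4 the call of *Htr1d* was lost in male libraries alone (0.45, adjusted p = 0.083 from edgeR) and without the library term (0.69). Thinned, *Htr1d* had a UMI in 5.25 ± 3.90% of PVT3 and 4.94 ± 2.77% of PVT4 nuclei (29.2% and 19.6% unthinned). *Glp2r* did not pass the test against PVT4 (0.22, SE 0.16, adjusted p = 0.427 from edgeR), and thinned it had a UMI in 7.70 ± 4.89% of PVT3 nuclei and 17.8 ± 10.1% of oligodendrocytes (29.3% and 20.3% unthinned). Of the peptide receptors tested, 2 of 9 were higher and 4 lower (median -0.10). Of the monoamine receptors 2 of 7 were higher and 1 lower (median 0.23), with *Hrh1* at 0.50 close to the fold required. The shares of all genes were 5.12% and 6.3%. In female libraries alone, 2 of 7 peptide receptors were higher and 2 lower, and 0 of 5 monoamine receptors higher and 1 lower. The shares of all genes there were 5.85% and 8.97%. Male libraries alone had 5 of 21 peptide receptors higher and 7 lower, and 4 of 13 monoamine receptors higher and 2 lower, beside 5.32% and 6.25%.

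Of 7 metabotropic glutamate receptors tested, 5 were lower, among them *Grm4* (-1.20), *Grm8* (-1.10) and *Grm5* (-0.78), and 1 was higher, *Grm3* (0.70), which was named after its value was seen. *Grm3* did not pass the test against PVT4 (0.21, SE 0.10, adjusted p = 0.149 from edgeR). The median over the 7 was -0.78. Over all genes tested 5.12% were higher and 6.3% lower. Among ionotropic glutamate receptors *Grik1* (-1.41), *Gria3* (-1.10) and *Grin2a* (-0.63) were lower and the other 13 of 16 were not called (median -0.17). Of 18 GABA and glycine receptor genes 1 was higher, *Glra3* (1.04), and 4 were lower, led by *Gabbr2* (-0.62), with a median of -0.07. *Glra3* ran from 15.7 to 101 CPM in PVT3, overlapped the others and did not pass the test against PVT4 (-0.09, SE 0.15).

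Some growth factor genes lay at both ends of the range. *Igf1*, the insulin-like growth factor, had the lowest log2 fold change of the genes named, -3.01 (SE 0.19, adjusted p = 7.14e-24 from edgeR). It had no UMI in 4 of the 10 PVT3 sums and at most 11.8 CPM, against 32.3 to 78.5 CPM in the others. *Igfbp7*, which binds such growth factors, was at 11.1 ± 6.13 CPM against 71.3 to 103 CPM (-2.75). *Erbb4*, the neuregulin receptor, was higher in PVT3 by 2.30 (SE 0.17), with a wide range from 114 CPM in female replicate 4 to 465 CPM in female replicate 1. Its level in neurons outside the gate was 358 ± 149 CPM, and thinned it had a UMI in 21.3 ± 9.53% of PVT3 nuclei and 87.6 ± 7.18% of oligodendrocytes (41.0% and 84.8% unthinned). *Prlr*, the prolactin receptor, was lower (-1.72). Of 18 genes tested from the insulin and growth factor list, 4 were higher, 3 lower and 11 not called (median 0.03). Of all genes tested, 5.12% were higher and 6.3% lower.

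*Gal*, which encodes galanin, ran from 5.12 to 58.2 CPM in PVT3 and was called 1.56 higher than the mean of the others on the log2 scale (SE 0.16), in 9 of 10 libraries, the exception being male replicate 1. Against PVT4 its call was lost under 8 alternative settings. It was at 0.12 there in male libraries alone (adjusted p = 0.845 from edgeR), and at -0.068 with only nuclei whose lead was at least 0.5. *Cck* (-1.40), *Bdnf* (-0.87) and *Chgb*, a granin of dense-core vesicles (-0.64), were lower. *Bdnf*, a neurotrophin, was uneven within PVT3, at 4.86 ± 5.18 CPM in the members of Neurons (4) and 81.9 ± 28.7 CPM in those of Neurons (2). Of 8 neuropeptide genes tested 2 were higher and 3 lower (median 0.01). Of 34 release genes, 3 were higher, among them *Syt10* (1.35, 207 ± 57.8 CPM), and 5 were lower, among them *Syt17* (-1.50) and *Rph3a* (-1.44), with a median of -0.11, beside 5.12% of all genes called higher and 6.3% lower.

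*Kcnh1*, an EAG-type potassium channel, ran from 65.3 to 130 CPM in PVT3 and from 15.8 to 38.5 CPM in the others (log2 fold change 2.29, SE 0.10). *Kcna1*, a delayed rectifier, ran from 26.8 to 70.6 CPM and from 9.96 to 22.4 CPM (1.68, SE 0.12). Neither range overlapped. Thinned, *Kcna1* had a UMI in 8.74 ± 5.15% of PVT3 nuclei and 47.1 ± 6.41% of oligodendrocytes (34.0% and 50.1% unthinned). *Dpp10*, a subunit of A-type Kv4 channels, was at 269 ± 79.5 CPM in PVT3 and 771 CPM in PVT4 (-1.84, SE 0.07), and the beta subunit *Kcnab1* was also lower (-1.80). Of 29 voltage-gated potassium channel genes tested, 2 were higher and 7 lower (median -0.27), beside 5.12% and 6.3% of all genes. In female libraries alone 3 of 27 were higher and 11 lower, beside 5.85% and 8.97% of all genes. Of 18 other potassium channel genes 4 were higher and 5 lower (median -0.18), with *Kcnk10* (0.60) and *Kcnk2* (1.09), 2-pore channels, called against the mean of the others but not against PVT4 (-0.05 and 0.09).

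*Cacna1i*, a T-type calcium channel, ran from 0 to 20.7 CPM against 28.2 to 45.5 CPM (-1.52, SE 0.15). The related *Cacna1h* stood at 21.7 ± 14.3 CPM, above the others in 10 of 10 libraries, but did not pass the filter (2.17 without it, SE 0.17). Female replicate 4 held 60.3 CPM of *Cacna1h* and the other 9 libraries between 10.5 and 24.8 CPM. *Cacng3*, an auxiliary subunit of AMPA receptors, was higher by 1.11, from 289 to 442 CPM in PVT3 against 140 to 211 CPM. Of 31 genes of calcium, sodium and other cation channels, 3 were higher and 3 lower (median -0.10), against the same shares of 5.12% and 6.3% over all genes. Among 10 calcium-binding proteins, 3 were higher, led by *Caln1* (1.65), and 2 lower, led by *Calb1* (-0.95), with a median of 0.04. Against PVT4, *Caln1* (0.34, SE 0.10) did not reach the fold required, *Necab2* was at 0.21 and *Hpcal1* stood at -0.86 (SE 0.17), a value that turned to 0.41 with thinned scores and lost its call with DESeq2 (-0.63) and without the library term (-0.64). *Calb2* did not reach the fold required (-0.28), and *Pvalb* had 5 UMIs in PVT3.

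Adhesion and guidance genes included some of the most abundant differences. *Pcdh15*, a protocadherin, had 1330 to 1596 CPM in PVT3 against 306 to 472 CPM in the others (log2 fold change 1.98, SE 0.06), with 704 CPM in PVT4. *Nrp2*, the co-receptor of class 3 semaphorins, was higher by 2.31 (SE 0.11). *Gpc6*, a glypican, was at 186 ± 54.0 CPM against 813 to 1118 CPM (-2.25, SE 0.08), and the semaphorins *Sema6d* (193 ± 64.3 CPM, -1.84) and *Sema5b* (7.30 ± 6.54 CPM, -2.29) were lower. Over all genes 5.12% were higher and 6.3% lower. Of 36 guidance genes 5 were higher and 10 lower (median -0.13), and of 17 cadherins and protocadherins 3 were higher and 6 lower (median -0.28). Of 31 synaptic organizers 8 were lower, led by *Clstn2* (-1.43) and *Nrxn3* (-1.41), and the other 23 were not called (median -0.26).

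**Figure D3:**
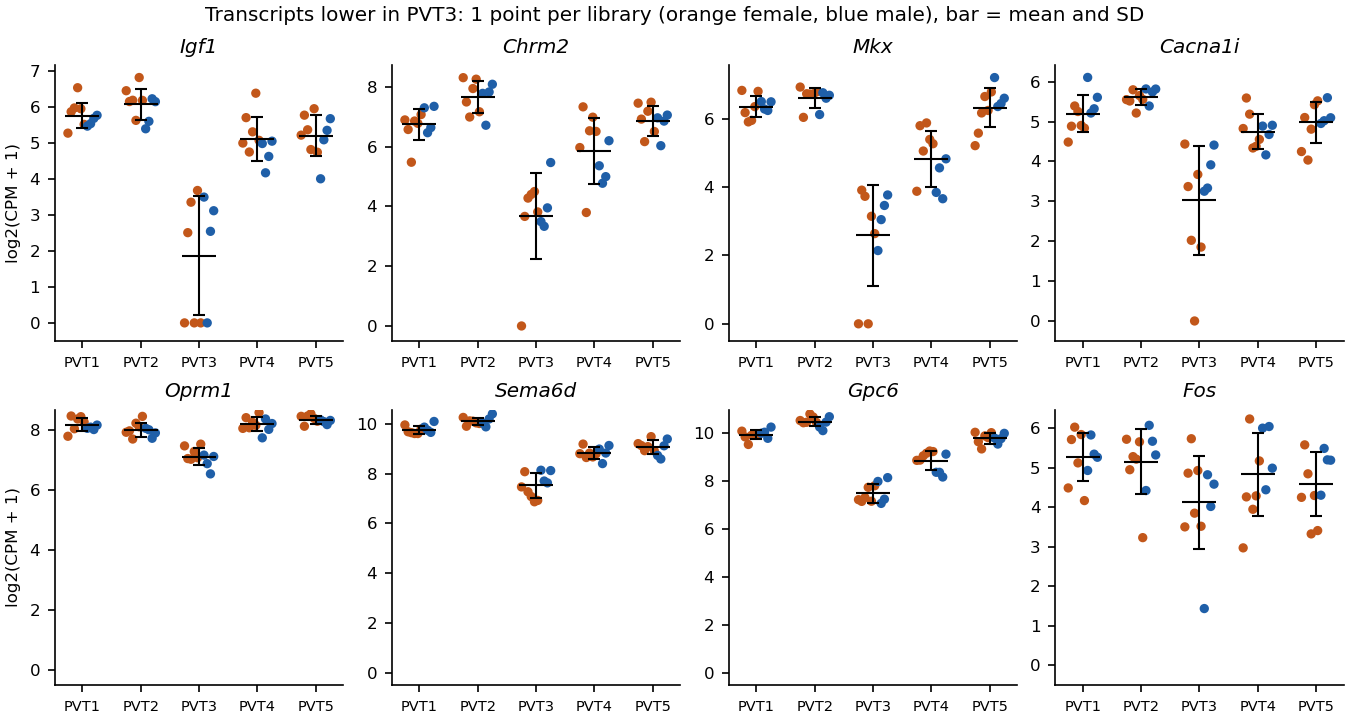
Levels of 8 transcripts lower in PVT3, as log2(CPM + 1) on the vertical axis for each of the 5 subtypes, with 1 point per library (female and male in different colours) and the mean and SD as a bar. For *Gpc6* and *Sema6d* the 10 PVT3 points lie below all points of the other subtypes, while those of *Fos* overlap them.

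Of the immediate early genes, which are transcribed soon after neuronal activity, 7 of the 20 listed could be tested in the joint fit, and 5 of these were lower in PVT3, beside 6.3% of all genes. *Fos* ran from 1.71 to 52.1 CPM in PVT3 and from 17.5 to 50.9 CPM in the others, with overlap (-0.98 on the log2 scale with SE 0.18, adjusted p = 5.05e-06 from edgeR). *Egr1* (-1.24), *Npas4* (-1.25) and *Btg2* (-1.25) were among the others, and the median over the 7 was -0.98. In female libraries alone 1 of 5 tested was called lower, where 5.85% of all genes were called higher and 8.97% lower, and *Fos* was at -0.38 (adjusted p = 0.324 from edgeR). In male libraries alone, where more genes passed the filter, 10 of 15 tested were called lower, beside 5.32% of all genes called higher and 6.25% lower. The difference itself did not pass the test of a difference between the sexes for *Fos* (interaction 0.83, SE 0.39, adjusted p = 0.561 from edgeR). Among 11 clock genes *Bhlhe40* (-0.97) and *Npas2* (-0.88) were lower (median -0.11). Among 7 genes tested from a list of nuclear hormone receptors, *Nr3c2* (-1.15), *Rarb* (-0.63) and *Thrb* (-0.55) were lower (median -0.16). The 3 genes of glutamatergic identity tested were not called, and their median was -0.22.

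**Figure D4:**
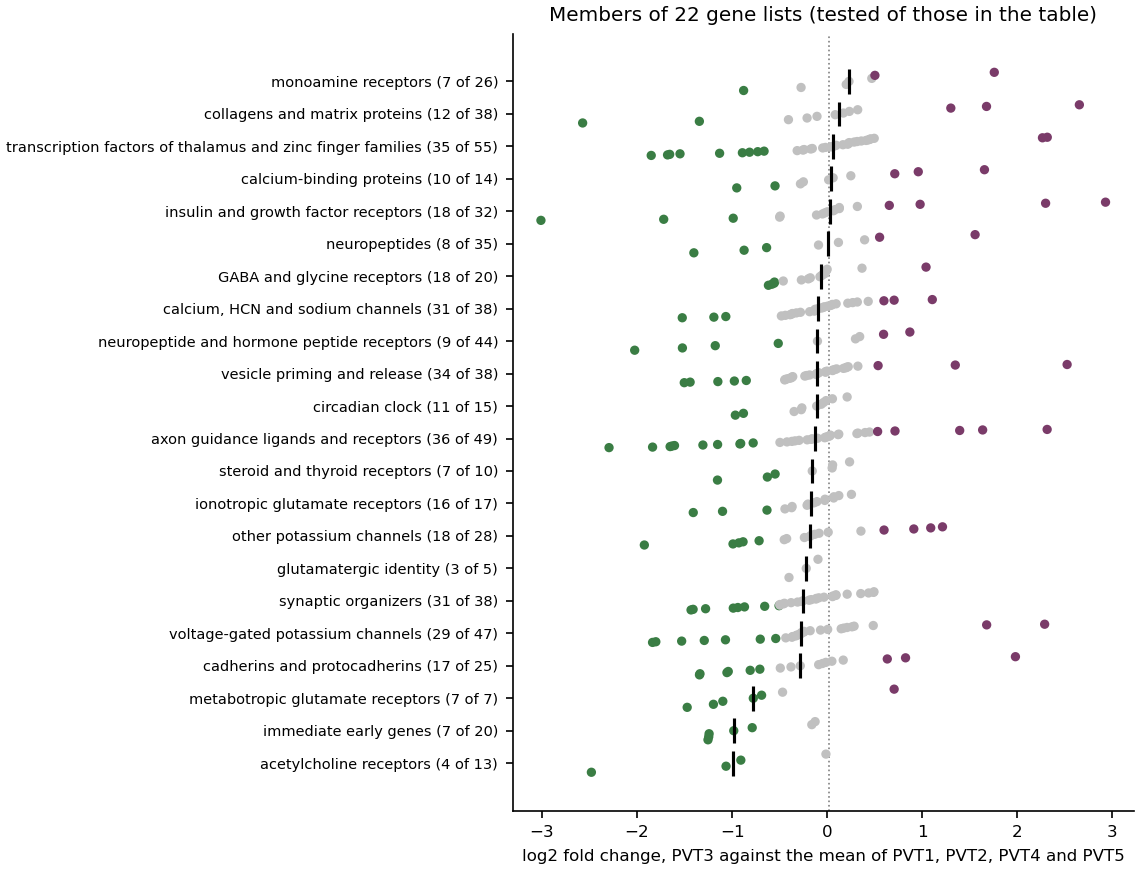
Log2 fold change of PVT3 against the mean of the other subtypes (horizontal axis) for each tested member of 22 gene lists, with purple for called higher, green for called lower, grey for not called, a black tick for the median of the list and a line at the median of all 8392 genes. The lists with the lowest medians are the acetylcholine receptors (-0.99), the immediate early genes (-0.98) and the metabotropic glutamate receptors (-0.78).

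PVT4 was the next highest score of most members and was compared with PVT3 directly. Of the genes higher than in PVT4, *Maf* led with a log2 fold change of 2.16 (SE 0.18), with *Lamb1* (1.99), *Pparg* (1.97), *C79798* (1.79) and *Pbx3* (1.76) also among the highest. *Pparg*, a nuclear receptor of lipid metabolism, had 50.8 ± 12.3 CPM in PVT3 and 15.6 CPM in PVT4, but its range from 30.6 to 67.1 CPM met that of the mean of the other subtypes, which reached 30.9 CPM. Lowest against PVT4 were *Igf1* (-2.47), *Ndst4*, a heparan sulfate enzyme (-2.37, SE 0.15), *Tacr3* (-2.23), *Thsd7b* (-2.12), *Susd1* (-2.10) and *Igfbp7* (-2.08). *Ndst4* was at 93.9 CPM in PVT4 beside 15.3 ± 8.73 CPM in PVT3, 20.6 CPM in PVT1 and 21.0 CPM in PVT2, and PVT3 differed from PVT1 by -0.31. *Npsr1*, the neuropeptide S receptor that the rule used for PVT4, was at 13.2 ± 5.38 CPM in PVT3 and 156 CPM in PVT4.

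**Figure D5:**
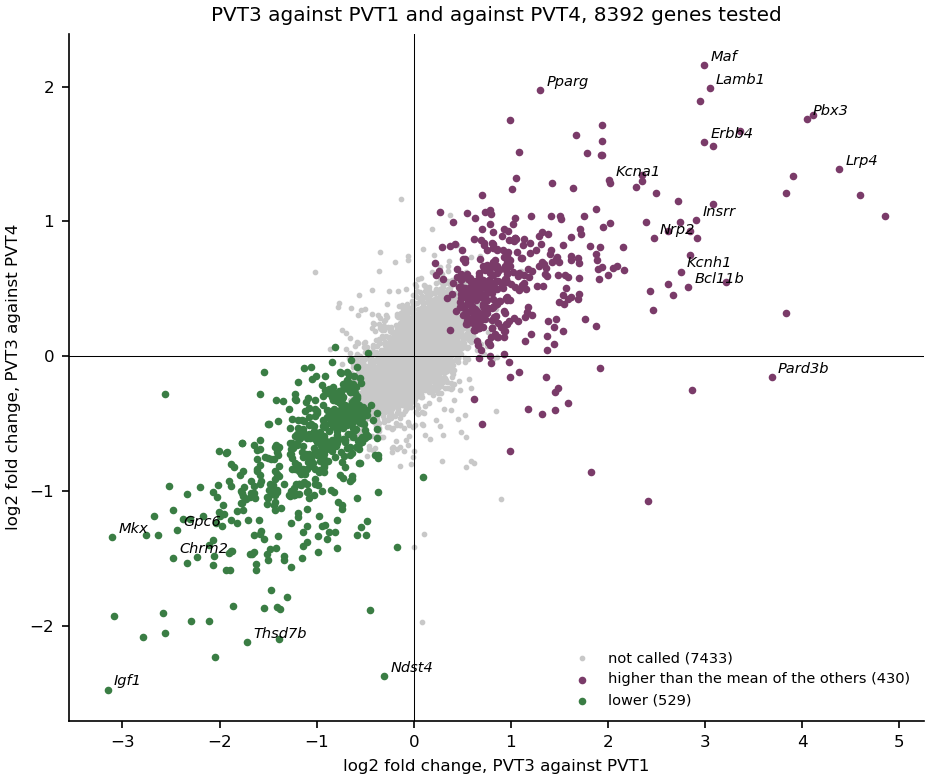
Log2 fold change of PVT3 against PVT1 and against PVT4 on the 2 axes, with 1 point per tested gene, coloured for the 430 genes called higher and the 529 called lower than the mean of the others. Both axes share the PVT3 sums, and *Pard3b* lies at -0.15 on the PVT4 axis.

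Whether PVT3 differed from the other subtypes alike in both sexes was tested as an interaction, in which a constant difference in counting cancels within a library. *Epha6*, an ephrin receptor, stood at 122 ± 55.6 CPM in female PVT3 (n = 6) and 214 ± 58.4 CPM in male PVT3 (n = 4), beside 594 ± 64.2 and 569 ± 76.0 CPM in the other subtypes. Its difference was larger in females (interaction -0.88 on the log2 scale, SE 0.17, adjusted p = 0.0131 from edgeR). In all, at an adjusted p under 0.05 from edgeR, 0 genes (0.0%) had a higher difference in females and 6 (0.0715%) a lower one. At an unadjusted p under 0.05 there were 695 genes, 222 of them higher, and DESeq2 called 2 higher and 13 lower. The others of the 6 were *Stxbp6* (-0.81), *Sntb1* (-0.67), *Cacnb4*, a calcium channel subunit (-0.57), *Kcnip4*, a subunit of Kv4 channels (-0.38), and *Xkr4* (-0.32), and 5 of the 6 were named for this count after their values were seen. All 6 were lower in PVT3 than in the other subtypes in each of the 10 libraries. No gene was called without female replicate 5, female replicate 6 or male replicate 4. The share of PVT3 nuclei in Neurons (2) was 16.6 ± 5.47% in female and 24.1 ± 4.59% in male libraries. In Neurons (4) it was 71.2 ± 8.39% and 64.9 ± 7.19%. The part of this make-up in the interaction was not tested.

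Direct comparison of PVT3 between the sexes called 278 of 7945 genes (3.5%) higher in females and 525 (6.61%) lower. The balance moved with the scaling, to 342 higher and 367 lower with RLE normalization and 341 and 328 with DESeq2, and without male replicate 2 the counts were 540 and 805. Over genes counted alike in both sexes, as defined below, 76 were higher and 144 lower, and with the replicate number as a block 190 and 292. With nuclei thinned to 2000 UMIs, 86 genes were higher and 115 lower of only 2279 tested. Among the receptors above, *Insrr* differed by -0.40 (SE 0.21, adjusted p = 0.240 from edgeR) and *Drd1* by 0.72 (SE 0.32, adjusted p = 0.169), short of the threshold.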

How the data were processed

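The authors deposited whole UMI counts per gene and nucleus, not normalized, with a table of nuclei that gives library, sex, cluster name, doublet call, the number of genes and the percent of mitochondrial UMIs. The submitters' processing notes name Cell Ranger 6.1.1 and the mm10 build. The 13 mitochondrial genes were left out. PVT3 sums held between 149203 and 2697197 UMIs per library. Nothing in the labels ties libraries to separate animals beyond their pools, so p-values measure the spread between libraries. Counts were summed per library and subtype (at least 10 nuclei, 50 sums) and tested by edgeR 4.0.16 under R 4.3.3 with TMM factors, the filterByExpr filter and the quasi-likelihood F test, with DESeq2 1.42.0 as an alternative. SE was taken as the absolute log2 fold change over the root of F. Scrublet was run in each library with scanpy 1.11.5. The fit was tested on simulated data with known fold changes. Of 1.5-fold and 2-fold increases, it recovered 84% and 100% for PVT3 against the others. For the interaction it recovered 53.45% and 80.8%, and for PVT3 between the sexes 10.9% and 63.8%. A gene not called between the sexes may therefore still differ by such folds. Genes counted alike are those neither nearly absent in one sex nor far apart between the sexes over the gated nuclei. Named genes were those of the rule, the 14 highest and 10 lowest called genes with one direction in all libraries, 6 and 6 against PVT4, up to 4 called genes of each of 22 lists, and genes the study compares, of which several are not reported here. Members and lists were chosen with earlier results of these data known.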

Additional observations from a re-analysis of the deposited data

Results flagged for a closer look

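In 16 of 260 groups of libraries examined, a single library stood apart from the others of its sex by more than the 95% critical value of Dixon's test, which chance alone gives in about 1 of 20 groups. In female replicate 4, whose PVT3 sum holds the fewest UMIs, these were *Cacna1h* (60.3 CPM, the other female libraries 10.5 to 16.4), *Kcnk10* (235 CPM against 114 to 150), *Syt10* (342 CPM against 196 to 243), *Onecut2* (13.4 CPM against 2.34 to 5.88) and *Dgkk* (13.4 CPM against 0 to 3.06). Elsewhere among females, *Tll1* was at 1.96 CPM in replicate 5, *Calb2* at 222 CPM in replicate 1 and *Clstn2* at 104 CPM in replicate 3. Among males, *Sv2c* was at 73.4 CPM in replicate 1 (54.1 to 56.3 in the others), *Hcrtr2* at 89.0 CPM, *Glra3* at 83.5 CPM (34.0 to 36.3 in the others) and *Kirrel* at 0.0 CPM in replicate 2, and *Chrm2* at 43.2 CPM (9.08 to 14.5 in the others), *1700047F07Rik* at 2.68 CPM, *St14* at 0.383 CPM and *Dgkk* at 0.383 CPM in replicate 4. *Kirrel*, *1700047F07Rik*, *St14* and *Dgkk* are genes of the rule, and the levels of *St14* and *Dgkk* in male replicate 4 are a single UMI each beside none in the other males.

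In 6 genes the difference between PVT3 and the other subtypes differed between the sexes by the interaction test of edgeR, female minus male on the log2 scale: *Epha6* by -0.884, *Stxbp6* by -0.814, *Sntb1* by -0.668, *Cacnb4* by -0.568, *Kcnip4* by -0.378 and *Xkr4* by -0.315. Over 15 alternatives *Epha6* and *Cacnb4* were called in 11, *Stxbp6* and *Kcnip4* in 9, *Xkr4* in 6 and *Sntb1* in 5. Adjusted p ranged from 3.26e-10 to 0.342 for *Epha6* and from 0.00116 to 0.490 for *Sntb1*. Depth differed between the sexes in the same libraries, and its part in these differences was not tested.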

How the results depend on the processing

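Of 102 named genes with a test against the mean of the others, 93 kept their direction and their side of the threshold under each alternative that gave them a value, of which 78 had a value under all 26. The calls of *Hrh1*, *Oprk1* and *Hcrtr2*, near the fold required, were lost under several settings, and those of *Susd1* (-0.46) and *Gabrg3* (-0.49) with thinned scores. Those of *Btg2* (-0.71), *Kcnmb4* (-0.46) and *Fos* (-0.38) were lost in females alone. *Npas4* (-1.02) lost its call without the library term. Against PVT4, 28 of 86 called named genes lost the call under at least 1 alternative in the same direction (88 of 2159 values), most often *Bcl11b* (9 alternatives), *Gal*, *Glra2* and *Kcnj5* (8 each) and *Onecut2* (7), and beside these directions turned for *Gal* (-0.068 with a lead of at least 0.5) and *Hpcal1* (0.41 with thinned scores). The cause was not tested.

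Without a filter on low counts more genes were tested, and 1247 were called higher and 920 lower than the others, 561 and 630 against PVT4, 1213 and 1013 against PVT1, 945 and 1434 between the sexes, and 3 and 32 for the interaction. Male libraries alone gave 659 higher. Of the counts per gene list, 35 of 440 values moved by a factor over 1.5 on leaving out 1 library. Under the other alternatives 70 of 704 did. With DESeq2, 328 genes were lower in females, and 2 and 13 were called for the interaction. Genes counted alike, a set that leaves out genes far apart between the sexes by construction, gave 76 and 144 between the sexes, and thinned UMIs 86 and 115 of 2279 tested. The interaction called 2 lower with RLE normalization and 2 with z-scores within each library. Leaving out 1 library at a time gave 335 to 464 higher and 526 to 633 lower than the others, 236 to 318 and 373 to 467 against PVT4, 421 to 561 and 630 to 764 against PVT1, 226 to 540 and 328 to 805 between the sexes, 0 to 2 and 0 to 24 for the interaction, and a difference in share of 1.35 to 4.39 points. Between the sexes, 540 and 805 came without male replicate 2 and 328 lower without male replicate 4. Without male replicates 3 and 4, an alternative chosen after seeing the data, 398 genes were higher and 556 lower than the others, and 78.5% of the calls were kept.

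Replicate numbers are shared by the sexes, but same-numbered libraries did not deviate together in PVT3 (r = -0.0167, -0.00794, -0.0419 and 0.0299 over 7945 genes, which are not independent), and only female replicate 4 correlated best with its own number. With the number as a replicate block, 190 genes were higher and 292 lower in females. Without the library as a term (no replicate block), 386 were higher and 502 lower than the others. Depth limits genes such as *Npffr1* and *Drd1*, with 150 and 158 UMIs in PVT3.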
